A study of Mus musculus with 6 samples.

Results

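The conjugation enzymes of phase II metabolism were followed in the descending colon of Muc2-/- mice, set against wild-type mice. The genes were chosen by name and level: protein-coding genes of the deposited count table whose names start with Ugt1a, Ugt2, Ugt3, Gsta, Gstk, Gstm, Gsto, Gstp, Gstt, Mgst or Sult, with a summed count of at least 50 over the 6 libraries. Of 67 genes with such names among the 55849 genes of the table, 36 met that level, 12 had between 1 and 49 counts and 19 had 0 counts in every library. The level was summed over both groups, so it did not use the difference between genotypes. Just above the limit were Gsta5 with 50 counts and Ugt2b36 with 59. Just below it were Gsta2 with 41 and Gsto2 with 35. Both Ugt3a genes were among those at 0, so the Ugt3 family has no member here.

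Poly(A) RNA was sequenced with paired-end Illumina reads from 3 libraries of Muc2-/- mice and 3 libraries of wild-type mice. The wild-type animals are C57BL/6, all animals were 12 weeks of age, and none had been treated. The strain background and the mutated allele of the Muc2-/- animals are not described in the labels. The sample titles name colon crypts, whereas the protocols describe RNA from pieces of descending colon, and the labels do not say how many animals each library holds, so a p-value here reflects spread among libraries, which may be technical.

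UDP-glucuronosyltransferases join glucuronic acid from UDP-glucuronic acid to alcohols, phenols, steroids and bilirubin, glutathione transferases join glutathione to electrophiles, and cytosolic sulfotransferases move sulfate from the donor PAPS to phenols, steroids and catecholamines. The conjugates are water soluble and leave the cell through transporters of the ABC family. In the intestine these enzymes sit mostly in epithelial cells and meet compounds from food, bile and the microbiota.

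The counts of all genes summed to between 16627761 and 17465636 in the Muc2-/- libraries and between 16395432 and 20336459 in the wild-type libraries. Muc2, the gel-forming mucin gene named in the genotype, had 757, 1021 and 942 CPM (counts scaled to a fixed library total) in Muc2-/- libraries 1, 2 and 3, against 2480, 6977 and 2629 CPM in wild-type libraries 1, 2 and 3. It was thus lower in every Muc2-/- library, with reads still assigned to the gene. In each group, libraries stood apart from the others. Muc2-/- 2 had 1.04% of its counts at mitochondrial genes, against 3.30% and 3.50% in the other Muc2-/- libraries, and its short transcripts were high relative to long ones. Wild-type 1 had 8.98% of its counts at mitochondrial genes, against 3.49% and 5.30% in the other wild-type libraries. Wild-type 3 had a goblet cell marker sum of 19251 CPM, against 3730 and 4766 CPM in wild-type 1 and 2. The single markers of that list were divided. Among the wild-type libraries, Fcgbp, Clca1, Zg16, Tff3 and Klk1 were highest in wild-type 3. Spdef, Spink4, Retnlb and Ang4 were lowest there, and Agr2 lay between.

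Markers of other cell types also moved with genotype. The summed level of 12 smooth muscle markers lay between 3279 and 6012 CPM in Muc2-/- libraries and between 7800 and 27712 CPM in wild-type libraries, and all 12 of 12 markers had a fold change below 1. The summed level of 8 enteric neuron and glia markers lay between 22.4 and 50.7 CPM in Muc2-/- libraries and between 53.5 and 237 CPM in wild-type libraries, again with all 8 of 8 lower. The summed level of 10 pan-epithelial markers such as Epcam and Krt8 lay between 29324 and 44308 CPM in Muc2-/- libraries and between 12328 and 24062 CPM in wild-type libraries, with 10 of 10 higher. None of the markers of these 3 lists was at 0. Of 8 fibroblast markers, 7 were lower, with sums between 657 and 834 CPM in Muc2-/- libraries and between 714 and 1472 CPM in wild-type libraries. Of 9 tested immune markers, 8 were higher, with sums between 151 and 515 CPM in Muc2-/- libraries and between 110 and 358 CPM in wild-type libraries, and S100a9 was at 0 in every wild-type library. Goblet cell markers summed to between 18403 and 28277 CPM in Muc2-/- libraries and between 3730 and 19251 CPM in wild-type libraries, with 7 of 10 higher. Absorptive colonocyte markers, 10 of 18 higher, summed to between 30419 and 41757 CPM in Muc2-/- libraries and between 21641 and 37167 CPM in wild-type libraries. The hepatocyte markers Fgb and Serpina1a were at 0 in every library. The part of these shifts in the values below was not tested. In bulk tissue, fewer cells of a type and less RNA per cell cannot be told apart.

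Among the 36 genes, DESeq2 called 2 glutathione transferases, Gsta1 and Gstp3, higher in the Muc2-/- colon at an adjusted p of 0.05. It called Gstm1, Gstt1, Ugt2b35 and Sult4a1 lower, although Sult4a1 overlapped between the groups. Those 6 genes were 17.6% of the members tested, where 11.5% of all genes passed in DESeq2. None of the members passed in edgeR's quasi-likelihood test, the main test. No other member passed in either test. The members together took between 0.235% and 0.396% of all counts. They summed to 3360, 4119 and 3023 CPM in Muc2-/- libraries 1, 2 and 3 and to 2138, 3085 and 3835 CPM in wild-type libraries 1, 2 and 3, and the groups overlapped.

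Of the 36 members, 34 passed edgeR's filter on low counts, which left out Ugt2b36 and Gsta5. In edgeR, 0 of 34 had an adjusted p under 0.05, where 0.124% of the 16107 genes tested did (0.106% higher and 0.0186% lower). At an unadjusted p under 0.05, 12 of 34 passed, where 21.0% of all genes tested did. Of these, 7 were higher (Gsta1, Gsta4, Gstk1, Gstp3, Mgst2, Sult1b1 and Sult6b1; background 8.23%) and 5 were lower (Gstm1, Gstm3, Gstt1, Sult4a1 and Ugt2b35; background 12.7%). In DESeq2, 6 of 34 passed at the adjusted threshold, or 17.6%, where 11.5% of 16096 genes did. Its calls were 2 higher, against a background of 4.09%, and 4 lower, against a background of 7.41%. The Muc2-/- and wild-type CPM values did not overlap for 10 of 34 members, or 29.4%, close to the 28.5% among all genes tested. These were 7 higher and 3 lower, where 13.3% and 15.2% of all genes were. The median log2 fold change over the 34 members was -0.01, with 17 above and 17 below 0, and over all genes tested it was -0.01 as well.

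**Figure D1:**
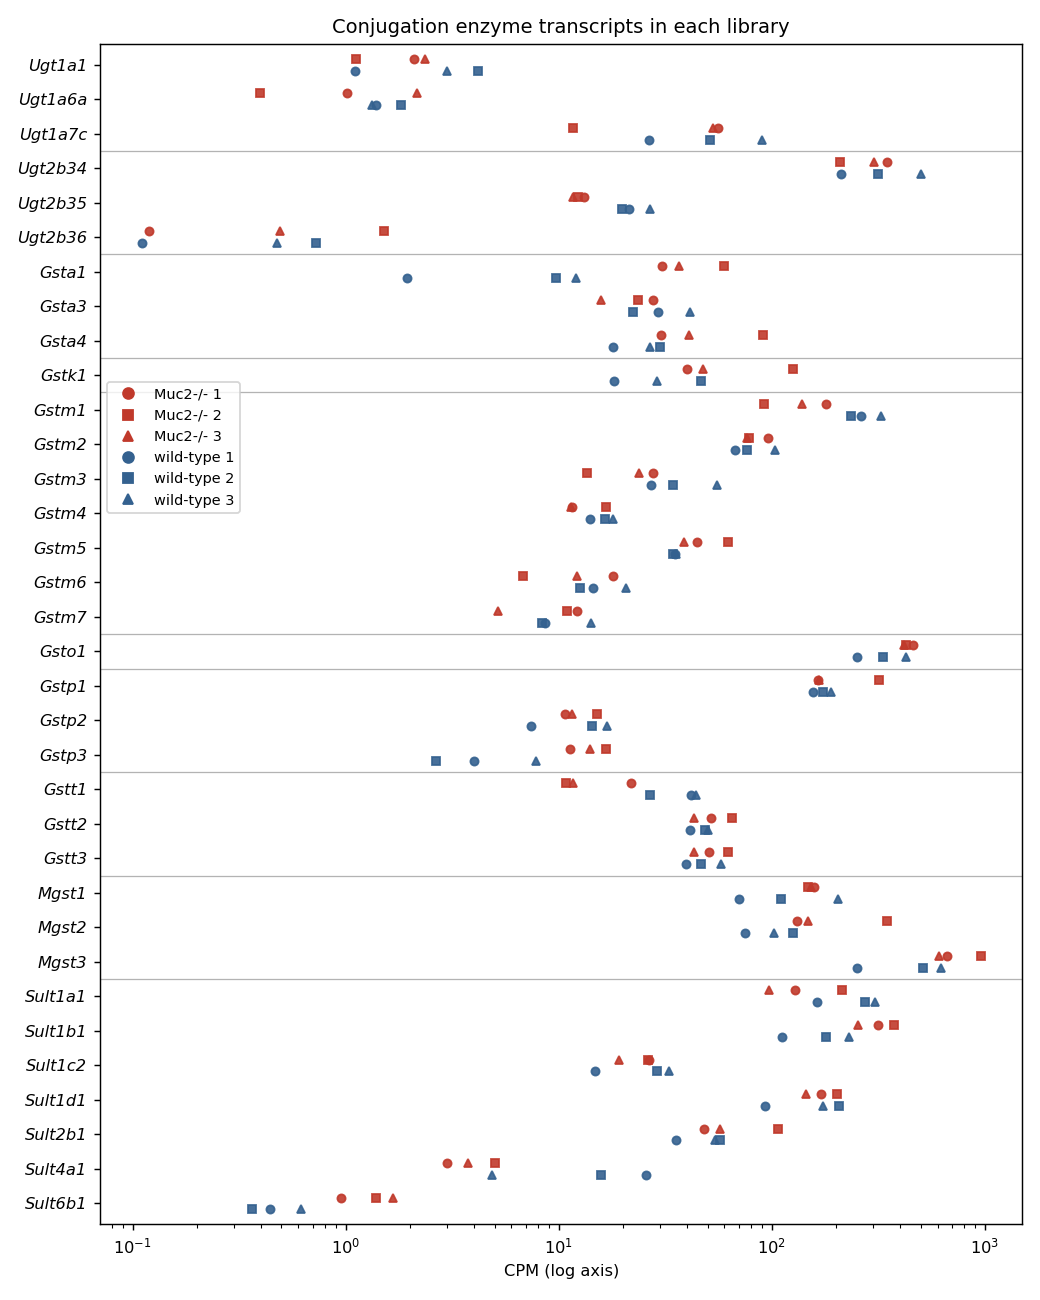
CPM of 34 of the 36 members in each library on a log axis, by family, with Muc2-/- libraries in red above wild-type libraries in blue and a marker shape for each replicate number. Gsta5 and Ugt2b5 are left out because a wild-type library held 0 counts of each. Gsta1 and Gstp3 lie to the right in all 3 Muc2-/- libraries, Gstm1, Gstt1 and Ugt2b35 lie to the left, and the groups overlap for most other genes.

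**Figure D2:**
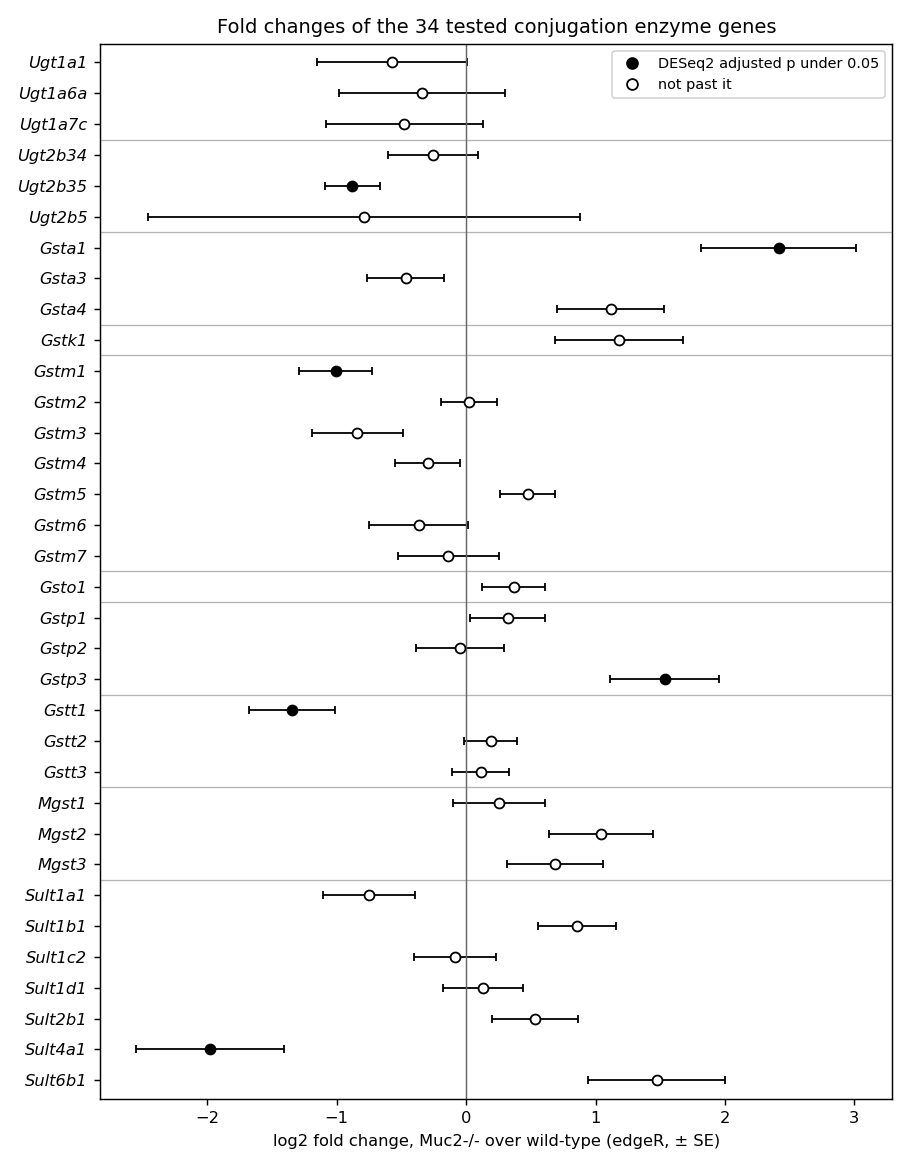
Log2 fold change of the 34 tested members, Muc2-/- over wild-type, from edgeR's quasi-likelihood fit, with bars of 1 standard error on either side. Filled points have a DESeq2 adjusted p under 0.05; Gsta1 at 2.42 and Sult4a1 at -1.98 mark the ends of the range.

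Promoters are shown for 5 of the 6 genes called in DESeq2, Gsta1 and Gstp3 on the higher side and Gstm1, Gstt1 and Ugt2b35 on the lower, with Gstp1 for comparison with its neighbour Gstp3. Each is 300 bases, from 250 before to 50 after the start of transcription, read 5′ to 3′ on the gene's strand, from RefSeq on GRCm38.p6, where 32 of the 36 members had an entry. Sult4a1, also called in DESeq2, had none. Capitals mark the core of the xenobiotic response element, GCGTG, searched on both strands. The coordinates are chr9:78230419-78230718 on the plus strand for Gsta1, chr19:4059398-4059697 on the minus strand for Gstp3, chr3:108017769-108018068 on the minus strand for Gstm1, chr10:75797682-75797981 on the minus strand for Gstt1, chr5:87000610-87000909 on the plus strand for Ugt2b35 and chr19:4037863-4038162 on the minus strand for Gstp1.
Gsta1: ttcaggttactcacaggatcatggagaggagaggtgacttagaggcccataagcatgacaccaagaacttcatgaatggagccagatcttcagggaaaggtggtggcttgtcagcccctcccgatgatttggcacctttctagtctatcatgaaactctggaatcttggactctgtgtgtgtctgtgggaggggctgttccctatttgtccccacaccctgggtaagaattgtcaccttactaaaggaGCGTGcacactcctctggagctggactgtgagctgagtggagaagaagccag
Gstp3: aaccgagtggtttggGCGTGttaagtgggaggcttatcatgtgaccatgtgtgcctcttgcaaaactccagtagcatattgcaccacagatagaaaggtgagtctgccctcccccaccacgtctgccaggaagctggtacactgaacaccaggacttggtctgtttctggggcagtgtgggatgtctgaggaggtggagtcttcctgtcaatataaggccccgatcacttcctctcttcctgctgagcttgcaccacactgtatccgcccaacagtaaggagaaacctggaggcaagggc
Gstm1: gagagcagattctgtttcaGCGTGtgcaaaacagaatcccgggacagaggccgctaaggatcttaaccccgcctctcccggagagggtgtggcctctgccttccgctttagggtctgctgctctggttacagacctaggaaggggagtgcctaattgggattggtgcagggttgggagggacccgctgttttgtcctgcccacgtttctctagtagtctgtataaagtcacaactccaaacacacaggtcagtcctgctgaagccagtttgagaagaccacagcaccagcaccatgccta
Gstt1: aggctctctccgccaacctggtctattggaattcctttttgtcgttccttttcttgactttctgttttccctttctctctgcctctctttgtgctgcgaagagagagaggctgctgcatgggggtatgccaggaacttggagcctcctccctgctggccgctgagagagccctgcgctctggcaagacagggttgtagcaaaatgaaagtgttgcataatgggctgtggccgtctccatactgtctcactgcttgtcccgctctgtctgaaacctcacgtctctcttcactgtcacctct
Ugt2b35: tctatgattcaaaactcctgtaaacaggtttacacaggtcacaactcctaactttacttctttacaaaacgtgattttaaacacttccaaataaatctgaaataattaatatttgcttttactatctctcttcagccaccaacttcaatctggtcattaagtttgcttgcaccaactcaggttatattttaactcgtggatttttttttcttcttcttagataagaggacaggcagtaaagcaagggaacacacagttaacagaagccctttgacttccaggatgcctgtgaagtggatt
Gstp1: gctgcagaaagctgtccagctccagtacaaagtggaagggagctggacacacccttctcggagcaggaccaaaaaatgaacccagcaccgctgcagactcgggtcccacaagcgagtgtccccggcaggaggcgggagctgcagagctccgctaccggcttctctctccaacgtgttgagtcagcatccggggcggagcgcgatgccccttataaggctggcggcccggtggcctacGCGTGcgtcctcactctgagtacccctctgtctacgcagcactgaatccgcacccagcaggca

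The xenobiotic response element core is bound by the aryl hydrocarbon receptor with its partner ARNT. It was found in 9 of the 32 members with a promoter, or 28.1%, and in 32.4% of all 32851 promoters. The antioxidant response element core, TGACNNNGC, through which NRF2 acts, was found in 4 of those 32 members, or 12.5%, and in 12.4% of all promoters. Those 4 genes were Gsta3, Gstm5, Gstm7 and Mgst1, none of which passed in DESeq2. Members were counted as genes, with a match at any of their starts, and the background as promoters. The shares therefore differ in unit and cannot be compared directly. The 2 motifs were searched independently and can overlap. A match is a run of letters and shows no binding, and a promoter without a match is described only within this window. In gapped alignments of the 300 bases, without a penalty for mismatches, Gstp1 had 81.3% identical bases with Gstp2 and 57.7% with Gstp3. The share was 54.7% for Gstp2 with Gstp3, 53.0% for Gstm1 with Gstm2 and 77.7% for Gsta1 with Gsta2.

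Among the transcripts per length, the deposited FPKM values put Mgst3 first with a mean of 551 FPKM over the 6 libraries. Gsto1 with 191, Gstm1 with 139, Sult1a1 with 131 and Gstp1 with 126 FPKM followed. Sult1b1 had 88.2, Ugt2b34 73.0, Mgst1 70.1 and Sult1d1 67.2 FPKM. Ugt2b34 was thus the leading UDP-glucuronosyltransferase and Ugt1a7c, with 11.4 FPKM, the leading gene of the Ugt1a family. At the low end stood Ugt2b36 with 0.281, Ugt1a6a with 0.312, Sult6b1 with 0.428 and Gsta5 with 0.461 FPKM.

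The UDP-glucuronosyltransferases comprised 3 of 9 Ugt1a genes and 4 of 10 Ugt2 genes. Each of the 6 tested had a fold change below 1, with log2 values between -0.88 and -0.25, and only Ugt2b35 passed an unadjusted p of 0.05. The untested Ugt2b36 had a ratio of means of 1.62. Without wild-type 3, the log2 fold change was 0.054 for Ugt1a7c and 0.13 for Ugt2b34, and the other tested genes stayed below 0. Ugt2b35 (ENSMUSG00000035811, chromosome 5, 87148719 to 87161134, plus strand) belongs to the family that conjugates steroids and bile acids. Gene coordinates are those of the count table, which are not those of GRCm38. It had 13.2, 12.4 and 11.7 CPM in Muc2-/- libraries 1, 2 and 3, against 21.5, 19.9 and 26.9 CPM in wild-type libraries 1, 2 and 3. All 3 Muc2-/- libraries lay close together and below every wild-type library. Its log2 fold change was -0.88 (SE 0.22), with an adjusted p of 0.103 in edgeR and 0.00899 in DESeq2. Without Muc2-/- 2 and wild-type 1 it was -0.92.

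Ugt2b34 lies in the same cluster on chromosome 5 as Ugt2b35 and was the most abundant gene of its family. It had 349, 210 and 303 CPM in Muc2-/- libraries 1, 2 and 3, and 211, 316 and 500 CPM in wild-type libraries 1, 2 and 3. These ranges overlapped throughout, and the log2 fold change was -0.25 (SE 0.35; edgeR adjusted p 0.714). Ugt2b5 had 0.179, 3.37 and 0.927 CPM in Muc2-/- libraries and 0, 7.61 and 0.0954 CPM in wild-type libraries. A single wild-type library thus held nearly all of its wild-type counts. Ugt2b36 stayed between 0.119 and 1.52 CPM in Muc2-/- libraries and between 0.111 and 0.730 CPM in wild-type libraries.

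The Ugt1a genes share their last exons, so that reads from the common end cannot be given to a single gene. In GENCODE M21, 82.7% of the exonic bases of Ugt1a1, the gene of the bilirubin-conjugating enzyme, overlapped other Ugt1a genes, and the share was 50.3% for Ugt1a6a and 54.6% for Ugt1a7c. Ugt1a7c had 55.7, 11.7 and 53.2 CPM in Muc2-/- libraries 1, 2 and 3, and 26.5, 51.4 and 89.9 CPM in wild-type libraries 1, 2 and 3. The low value belonged to Muc2-/- 2, and the other Muc2-/- libraries lay inside the wild-type range (log2 fold change -0.48, SE 0.61; edgeR adjusted p 0.692). Ugt1a1 had 2.08, 1.12 and 2.35 CPM in Muc2-/- libraries and 1.11, 4.17 and 3.00 CPM in wild-type libraries. Ugt1a6a had 1.01, 0.396 and 2.16 CPM in Muc2-/- libraries and 1.38, 1.82 and 1.34 CPM in wild-type libraries. Both overlapped between the groups.

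The alpha-class glutathione transferases held the widest difference of the set. Gsta1 (ENSMUSG00000074183, chromosome 9, 78137938 to 78149966, plus strand) encodes an alpha-class enzyme of the kind that reduces lipid hydroperoxides. It had 30.5, 59.8 and 36.7 CPM in Muc2-/- libraries 1, 2 and 3, against 1.94, 9.70 and 12.1 CPM in wild-type libraries 1, 2 and 3. The lowest Muc2-/- library lay well above the highest wild-type library. The 6 libraries stood in the same order as in the pan-epithelial sum, whose part in the Gsta1 values was not tested. The means were 42.4 ± 15.4 CPM in Muc2-/- and 7.92 ± 5.31 CPM in wild-type libraries (SD, n = 3 each), a ratio of 5.35. On the log2 scale the fold change was 2.42 (SE 0.60), with an adjusted p of 0.103 in edgeR and 0.00160 in DESeq2, and 1.62 without Muc2-/- 2 and wild-type 1. Of the 100-base windows along its exons, 80.6% occurred also in Gsta2, Gm3776 or Gm10639, so reads assigned to Gsta1 may come from those copies. Gsta2 itself had 7, 4 and 13 counts in Muc2-/- libraries and 6, 2 and 9 counts in wild-type libraries.

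Gsta4 encodes the alpha-class enzyme with high activity towards the lipid aldehyde 4-hydroxynonenal. It had 30.1, 90.7 and 40.9 CPM in Muc2-/- libraries 1, 2 and 3, against 18.0, 29.8 and 26.7 CPM in wild-type libraries 1, 2 and 3. Every Muc2-/- value was above every wild-type value, but Muc2-/- 1 lay only just above wild-type 2. The log2 fold change of 1.12 (SE 0.41; edgeR adjusted p 0.183) came to 0.33 without Muc2-/- 2 and wild-type 1. Gsta3 had 27.6, 23.7 and 15.9 CPM in Muc2-/- libraries and 29.1, 22.4 and 41.3 CPM in wild-type libraries, with a log2 fold change of -0.47 (SE 0.30; edgeR adjusted p 0.408). Gsta5, which did not pass the filter, had 0.357, 0.991 and 0.865 CPM in Muc2-/- libraries and 0, 0.261 and 0.477 CPM in wild-type libraries. Gsta3 and Gsta5 overlapped between the groups.

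In the mu class, Gstm1 was lower and its neighbours in the cluster on chromosome 3 were not uniformly so. Gstm1 (ENSMUSG00000058135, chromosome 3, 107919571 to 107925289, minus strand) had 179, 92.0 and 139 CPM in Muc2-/- libraries 1, 2 and 3, against 263, 235 and 326 CPM in wild-type libraries 1, 2 and 3. Every Muc2-/- library lay below every wild-type library, with Muc2-/- 2 lowest. The log2 fold change was -1.01 (SE 0.28), with an adjusted p of 0.115 in edgeR and 0.0153 in DESeq2, and it was -0.82 without Muc2-/- 2 and wild-type 1. Gstm3 had 27.7, 13.6 and 23.9 CPM in Muc2-/- libraries, against 27.0, 34.5 and 55.4 CPM in wild-type libraries, and the groups overlapped at their edges (log2 fold change -0.84, SE 0.35; edgeR adjusted p 0.224). Gstm5 had 44.5, 62.5 and 38.9 CPM in Muc2-/- libraries, against 35.2, 34.3 and 35.4 CPM in wild-type libraries. The groups did not overlap for Gstm5, whose log2 fold change was 0.48 (SE 0.21; edgeR adjusted p 0.252). Of its exonic bases in GENCODE M21, 13.9% overlap 4933431E20Rik, so its reads cannot be wholly told from that gene's. Gstm2 had 96.3, 78.0 and 76.9 CPM in Muc2-/- libraries and 67.6, 76.4 and 104 CPM in wild-type libraries, with a log2 fold change of 0.02 (SE 0.22).

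The remaining mu-class genes Gstm4, Gstm6 and Gstm7 ranged from 5.19 to 18.0 CPM in Muc2-/- libraries and from 8.34 to 20.7 CPM in wild-type libraries, with log2 fold changes between -0.37 and -0.14. Summed over the 7 genes, the mu class had 390, 280 and 307 CPM in Muc2-/- libraries 1, 2 and 3, against 429, 417 and 574 CPM in wild-type libraries 1, 2 and 3. The sums did not overlap, at a log2 ratio of the means of -0.54. Without Gstm1 the log2 ratio was -0.07. A processed pseudogene of the class, Gstm2-ps1, named after its values were seen, had 1.55, 1.12 and 1.11 CPM in Muc2-/- libraries and 4.71, 3.18 and 4.82 CPM in wild-type libraries. Gstm1 shares 5.86% of its 100-base windows with other genes, that pseudogene among them.

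The pi-class genes Gstp1, Gstp2 and Gstp3 lie within a short stretch of chromosome 19. Gstp3 (ENSMUSG00000058216, 4107477 to 4109569, minus strand) had 11.3, 16.7 and 14.1 CPM in Muc2-/- libraries 1, 2 and 3, against 3.99, 2.66 and 7.82 CPM in wild-type libraries 1, 2 and 3. All Muc2-/- libraries were above all wild-type libraries. For Gstp3 the log2 fold change was 1.53 (SE 0.42), with an adjusted p of 0.113 in edgeR and 0.0119 in DESeq2, and it was 1.27 without Muc2-/- 2 and wild-type 1. Gstp1, the abundant pi-class enzyme of epithelia, had 165, 318 and 167 CPM in Muc2-/- libraries and 155, 175 and 189 CPM in wild-type libraries. Only Muc2-/- 2 exceeded the wild-type range, and the log2 fold change of 0.32 (SE 0.29; edgeR adjusted p 0.561) was -0.14 without Muc2-/- 2 and wild-type 1. Gstp2 had 10.7, 15.1 and 11.6 CPM in Muc2-/- libraries and 7.42, 14.3 and 16.8 CPM in wild-type libraries. Gstp1 and Gstp2 share windows with each other and with the pseudogene Gstp-ps, 25.1% of those of Gstp1 and 46.9% of those of Gstp2, while Gstp3 shares 0%.

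In the theta class, Gstt1 differed from its neighbours. Gstt1 (ENSMUSG00000001663, chromosome 10, 75619647 to 75634418, minus strand), whose enzyme acts on small halogenated compounds, had 21.9, 10.8 and 11.6 CPM in Muc2-/- libraries 1, 2 and 3, against 41.7, 26.9 and 44.0 CPM in wild-type libraries 1, 2 and 3. Each Muc2-/- library lay below each wild-type library. For Gstt1 the log2 fold change was -1.34 (SE 0.33), with an adjusted p of 0.103 in edgeR and 0.00658 in DESeq2, and it was -1.08 without Muc2-/- 2 and wild-type 1. Gstt2 had 51.9, 64.8 and 43.1 CPM in Muc2-/- libraries and 41.3, 48.8 and 49.97 CPM in wild-type libraries. Gstt3 had 50.5, 62.2 and 43.1 CPM in Muc2-/- libraries and 39.7, 46.4 and 58.0 CPM in wild-type libraries. Their groups overlapped, with a log2 fold change of 0.19 (SE 0.20) for Gstt2 and of 0.11 (SE 0.22) for Gstt3.

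Gsto1, the omega-class enzyme that acts as a thioltransferase and dehydroascorbate reductase, had 461, 426 and 419 CPM in Muc2-/- libraries 1, 2 and 3 and 250, 334 and 429 CPM in wild-type libraries 1, 2 and 3. Its Muc2-/- values were close together and wild-type 3 lay among them (log2 fold change 0.37, SE 0.25; edgeR adjusted p 0.429). Gstk1, the kappa-class enzyme of mitochondria and peroxisomes, had 40.2, 125 and 47.7 CPM in Muc2-/- libraries, against 18.2, 46.7 and 29.1 CPM in wild-type libraries. Muc2-/- 2 stood far above the rest, and Muc2-/- 1 lay below wild-type 2. The log2 fold change of 1.18 (SE 0.50; edgeR adjusted p 0.228) was 0.21 without Muc2-/- 2 and wild-type 1.

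The microsomal transferases of the Mgst family are membrane proteins that use glutathione, and Mgst2 can form leukotriene C4. All 3 genes had a fold change above 1. Mgst2 had 131, 347 and 148 CPM in Muc2-/- libraries 1, 2 and 3, against 74.7, 126 and 103 CPM in wild-type libraries 1, 2 and 3. There was no overlap, with Muc2-/- 2 far above the others, and the log2 fold change of 1.04 (SE 0.40; edgeR adjusted p 0.195) was 0.28 without Muc2-/- 2 and wild-type 1. Mgst3 had 666, 955 and 612 CPM in Muc2-/- libraries and 251, 510 and 626 CPM in wild-type libraries. Mgst1 had 157, 149 and 154 CPM in Muc2-/- libraries and 70.0, 111 and 204 CPM in wild-type libraries. Wild-type 3 reached the Muc2-/- range for Mgst3 and exceeded it for Mgst1, and the log2 fold change was 0.69 (SE 0.37) for Mgst3 and 0.26 (SE 0.36) for Mgst1.

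**Figure D3:**
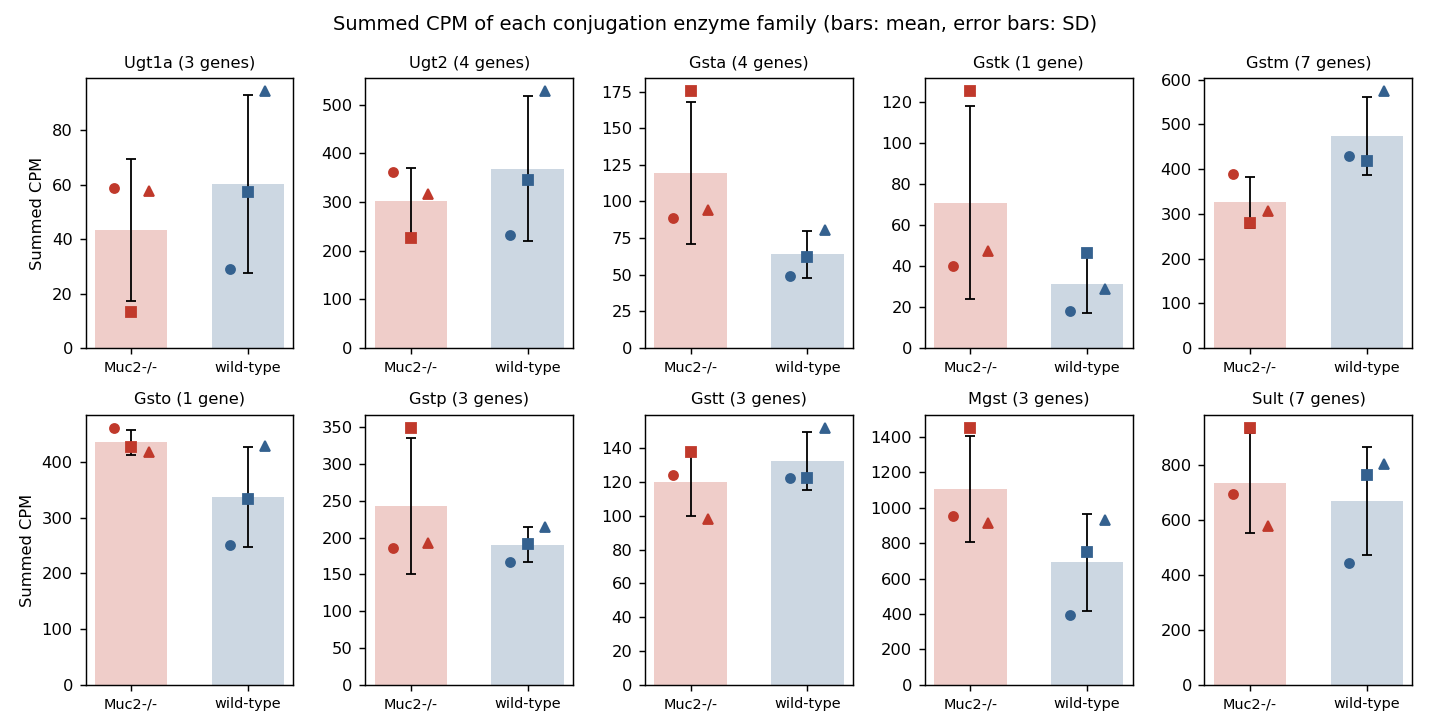
Summed CPM of each family, Muc2-/- libraries in red on the left and wild-type libraries in blue on the right of each panel, with bars at the mean and error bars of 1 SD (n = 3 each) and a marker shape for each replicate number. The Gsta sums lie higher in all 3 Muc2-/- libraries and the Gstm sums lower, and the other 8 families overlap.

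Summed over the family, the Gsta genes had 88.7, 175 and 94.4 CPM in Muc2-/- libraries 1, 2 and 3, against 49.1, 62.1 and 80.6 CPM in wild-type libraries 1, 2 and 3, a log2 ratio of the means of 0.90. Summed as FPKM, which counts the short Gsta1 transcript more, the log2 ratio was 1.42. The plot of family sums shows that Gsta and Gstm were the only families of the 10 whose library sums did not overlap. Among single genes, 28.5% of all tested did not overlap, a share by gene and not by family. The closest libraries were Muc2-/- 1 at 88.7 and wild-type 3 at 80.6 CPM for Gsta. For Gstm they were Muc2-/- 1 at 390 and wild-type 2 at 417 CPM. The cytosolic glutathione transferases together summed to between 1111 and 1369 CPM in Muc2-/- libraries and between 1018 and 1449 CPM in wild-type libraries, and those totals overlapped. The UDP-glucuronosyltransferases together summed to between 240 and 421 CPM in Muc2-/- libraries and between 262 and 622 CPM in wild-type libraries.

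Of 21 sulfotransferase genes, 7 were members, with differences in both directions. Sult1b1, an intestinal enzyme that sulfates phenols and thyroid hormone, had 316, 376 and 253 CPM in Muc2-/- libraries 1, 2 and 3, against 111, 180 and 232 CPM in wild-type libraries 1, 2 and 3. The groups did not overlap, and the log2 fold change was 0.86 (SE 0.30; edgeR adjusted p 0.169), or 0.47 without Muc2-/- 2 and wild-type 1. Sult1a1, the phenol sulfotransferase, had 129, 214 and 97.0 CPM in Muc2-/- libraries, against 163, 273 and 304 CPM in wild-type libraries. Muc2-/- 2 lay above wild-type 1, and the log2 fold change of -0.75 (SE 0.35; edgeR adjusted p 0.271) was -1.35 without those same libraries. Sult1d1, which sulfates catecholamines, had 170, 203 and 145 CPM in Muc2-/- libraries and 92.8, 206 and 174 CPM in wild-type libraries. Sult2b1, which sulfates cholesterol and related steroids, had 48.2, 107 and 57.0 CPM in Muc2-/- libraries and 35.4, 57.3 and 54.3 CPM in wild-type libraries. Both overlapped between the groups, as did Sult1c2, which ranged from 19.3 to 26.6 CPM in Muc2-/- libraries and from 14.8 to 32.9 CPM in wild-type libraries.

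Sult6b1 was scarce, with 0.953, 1.39 and 1.67 CPM in Muc2-/- libraries 1, 2 and 3, against 0.443, 0.365 and 0.620 CPM in wild-type libraries 1, 2 and 3. Its groups did not overlap, and the log2 fold change was 1.47 (SE 0.53; edgeR adjusted p 0.172). Sult4a1 (ENSMUSG00000018865, chromosome 15, 83960298 to 83989955, minus strand) encodes a sulfotransferase known mainly from brain and neurons. It had 2.98, 5.02 and 3.77 CPM in Muc2-/- libraries, against 25.8, 15.7 and 4.86 CPM in wild-type libraries. Wild-type 3 lay inside the Muc2-/- range, while wild-type 1 and 2 stood far above it. Its log2 fold change was -1.98 (SE 0.57), with an adjusted p of 0.121 in edgeR and 0.0109 in DESeq2. The 8 enteric neuron and glia markers ordered the wild-type libraries the same way, with 33.8, 50.7 and 22.4 CPM in Muc2-/- libraries 1, 2 and 3 and 237, 142 and 53.5 CPM in wild-type libraries 1, 2 and 3. Of these 8 markers, 7 were lower with an adjusted p under 0.05 in DESeq2, and their part in the Sult4a1 value was not tested.

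**Figure D4:**
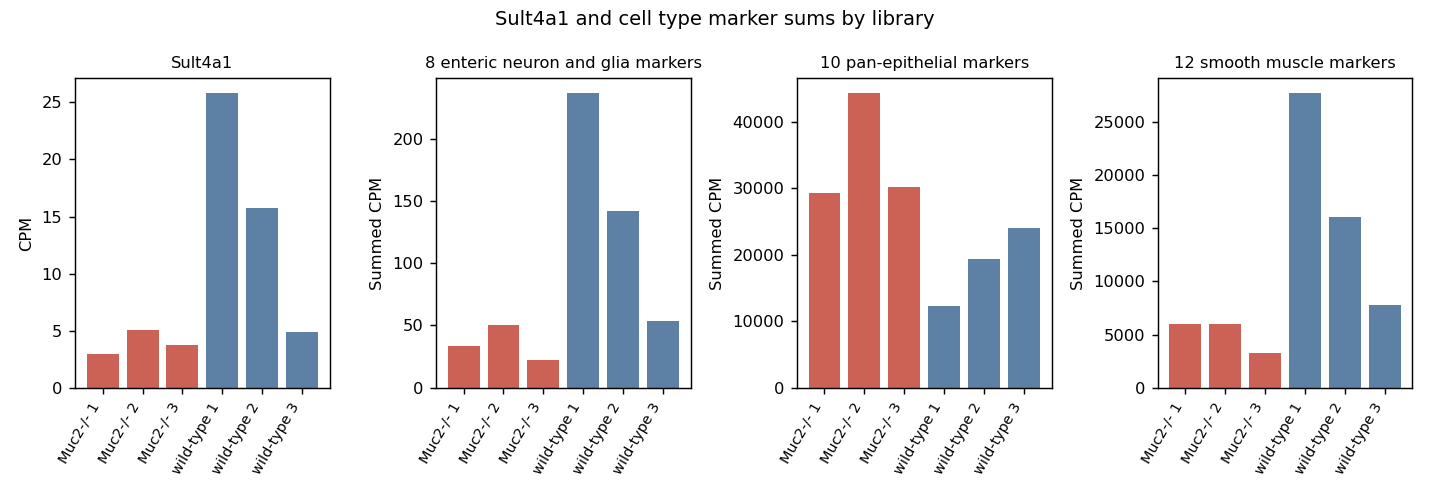
CPM of Sult4a1 and summed CPM of the enteric neuron and glia, pan-epithelial and smooth muscle marker lists, a bar for each library, with Muc2-/- in red on the left and wild-type in blue on the right. Sult4a1 and the neuron and glia sum are both highest in wild-type 1, then wild-type 2, then wild-type 3.

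The wild-type libraries differed among themselves in the members as well. Wild-type 1, which had the highest smooth muscle sum and the lowest pan-epithelial sum, was the lowest of the 6 libraries for 18 of the 34 tested members. Wild-type 3 was the highest for 15 and Muc2-/- 2 for 12. Wild-type 3 also stood apart in its goblet cell marker sum, though not in the same direction for every marker. Without wild-type 3, edgeR gave an adjusted p under 0.05 to 3 of 36 members, Gsta1 and Gstp3 higher and Sult4a1 lower. That was 8.33%, where 7.3% of 16788 genes passed (1.62% higher and 5.68% lower). Without Muc2-/- 2 and wild-type 1, edgeR gave 0 members such a p.

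Muc2-/- 2 differed from the other Muc2-/- libraries by transcript length. Over the 34 tested members, the Spearman correlation between listed gene length and the log2 ratio of Muc2-/- 2 to the mean of Muc2-/- 1 and 3 was -0.30, and over all 16107 genes tested it was -0.22. Members and other genes share the library, so the correlation describes it. The median log2 ratio was 0.54 for the 17 members shorter than 1923.5 bases and 0.08 for the 17 longer ones. Over all genes tested, split at the same length, it was 0.26 for the 3059 shorter and -0.10 for the 13048 longer genes. Ugt1a7c, of 4219 bases, had a log2 ratio of -2.22, and Ugt1a6a, of 4312 bases, had -2.00. Gstk1 had 1.51, Gsta4 1.35 and Mgst2 1.31, whose fold changes with and without that library are given above. The relation to length also differed between the genotypes among the members. The Spearman correlation of length with a library's deviation in level was -0.083, -0.33 and -0.059 in Muc2-/- libraries 1, 2 and 3. It was 0.23, 0.22 and 0.11 in wild-type libraries 1, 2 and 3. Over all genes tested it was -0.0014, -0.25 and 0.033 in Muc2-/- libraries and 0.16, 0.10 and 0.044 in wild-type libraries. There Muc2-/- 3 and wild-type 3 lay close together. Deviations were taken from the mean of all 6 libraries, so opposite signs in the groups are partly built in. Gstp3, of 908 bases, and Gsta1, of 956, are the shortest members. The part of length in the fold changes was not tested.

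**Figure D5:**
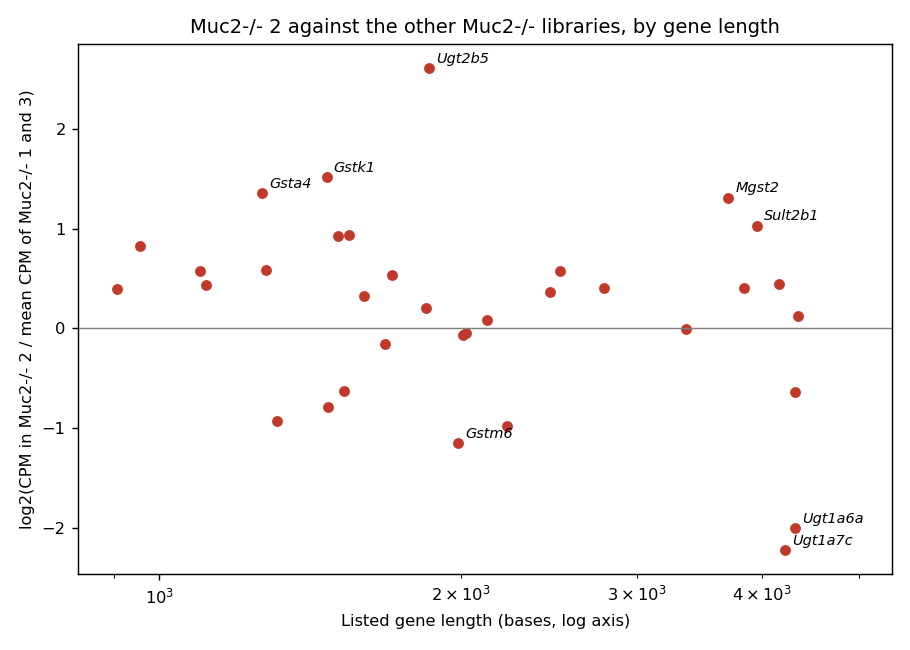
Log2 ratio of CPM in Muc2-/- 2 to the mean CPM of Muc2-/- 1 and 3 for each of the 34 tested members, against the listed gene length in bases on a log axis. Points over 1 or under -1 are named; shorter transcripts lie mostly above 0, and Ugt1a7c and Ugt1a6a are lowest.

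Genes around the conjugation reactions were described from lists of supply, recycling, export, regulators and related enzymes, 119 of which were tested. In edgeR, 0 of 119 had an adjusted p under 0.05, and at an unadjusted p under 0.05 there were 13 higher and 15 lower, against 8.23% and 12.7% of all genes tested. DESeq2 called 5 higher (among them Gpx1, Sqor, Nr1h4 and Pgd) and 6 lower (Abcc2, Slc26a3, Inmt, Ephx1, Gstz1 and Tpst1), against 4.09% and 7.41% of all genes, so the shares over the lists were near or below the background. The median log2 fold change over the lists was 0.07.

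Export of conjugates held the widest difference. Abcc2, the apical transporter of glucuronide and glutathione conjugates also known as MRP2, had 1.19, 0.529 and 0.556 CPM in Muc2-/- libraries 1, 2 and 3, against 15.95, 5.94 and 4.63 CPM in wild-type libraries 1, 2 and 3. Every Muc2-/- library was far below every wild-type library. Its log2 fold change was -3.52 (SE 0.63), with an adjusted p of 0.0931 in edgeR and 4.3e-06 in DESeq2. Of the 12 tested genes of that list, 9 had a fold change below 1, the median log2 fold change was -0.64, and 6 were lower at an unadjusted p under 0.05 with 0 higher. These 6 were Abcc1, Abcc2, Abcc5, Abcb1a, Slco2a1 and Slco3a1; the shares over all genes were 12.7% lower and 8.23% higher. Abcc2, Abcc1, Abcc5 and Slco3a1 were highest in wild-type 1 and lowest in wild-type 3 among the wild-type libraries, the order of the smooth muscle and the neuron and glia sums, whose part in these values was not tested.

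For the supply of UDP-glucuronic acid and UDP-glucose, 5 of 7 genes had a fold change above 1, with a median log2 fold change of 0.30. Among 24 genes of glutathione synthesis, recycling and cleavage, the median log2 fold change was 0.17 and 1 passed in DESeq2. It was Gpx1, the glutathione peroxidase that reduces hydrogen peroxide, with 523, 628 and 497 CPM in Muc2-/- libraries 1, 2 and 3, against 346, 359 and 395 CPM in wild-type libraries 1, 2 and 3 (log2 fold change 0.58, SE 0.21; DESeq2 adjusted p 0.0290). All its Muc2-/- values were above all wild-type values.

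In the list of sulfate activation, uptake and sulfatases, 17 genes were tested, with a median log2 fold change of 0.07. Sqor, the mitochondrial enzyme that oxidises sulfide, had 560, 1050 and 642 CPM in Muc2-/- libraries 1, 2 and 3, against 247, 373 and 410 CPM in wild-type libraries 1, 2 and 3 (log2 fold change 1.13, SE 0.32; DESeq2 adjusted p 0.0130). Slc26a3, an apical anion exchanger of colonocytes, had 1004, 443 and 734 CPM in Muc2-/- libraries, against 1040, 1513 and 2143 CPM in wild-type libraries (log2 fold change -1.11, SE 0.40; DESeq2 adjusted p 0.0427). The groups did not overlap for either gene, although Muc2-/- 1 and wild-type 1 were close for Slc26a3. For Sqor, the 6 libraries stood in the order of the pan-epithelial sum, whose part was not tested.

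Among 20 regulators that sense xenobiotics and oxidants, the median log2 fold change was 0.14 and 1 passed in DESeq2. Nr1h4, the bile acid receptor FXR, had 61.9, 62.8 and 77.8 CPM in Muc2-/- libraries 1, 2 and 3, against 26.5, 35.8 and 40.3 CPM in wild-type libraries 1, 2 and 3. No values overlapped, and the log2 fold change was 0.98 (SE 0.21; DESeq2 adjusted p 0.00350). Of 24 tested NRF2 target genes outside the member families, 16 had a fold change above 1, with a median of 0.20 on the log2 scale, and DESeq2 called 1 higher and 1 lower. Pgd, of the pentose phosphate pathway that supplies NADPH, had 397, 699 and 498 CPM in Muc2-/- libraries, against 202, 283 and 316 CPM in wild-type libraries (log2 fold change 0.99, SE 0.29; DESeq2 adjusted p 0.0178). Ephx1, the microsomal epoxide hydrolase, had 28.9, 13.7 and 22.4 CPM in Muc2-/- libraries, against 82.6, 49.3 and 33.2 CPM in wild-type libraries. Its log2 fold change was -1.34 (SE 0.39), with a DESeq2 adjusted p of 0.0176. The wild-type values of Ephx1 were in the same order as the smooth muscle and the neuron and glia sums, whose part was not tested. The values of Pgd in the 6 libraries were in the order of the pan-epithelial sum, whose part was not tested either.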

How the data were processed

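The authors deposited a table of whole-number counts per gene, not normalized, and a table of FPKM per gene and library. The submitters' processing notes name mm10 as the build. As tools they list DESeq2 1.20.0, featureCounts 1.5.0-p3, StringTie 1.3.3b and HISAT2 2.0.5, and do not say what each did. Neither the strand setting of the counting nor its treatment of reads matching several genes is known here (not given in the sources used here). Values of overlapping or near-identical genes are therefore uncertain. Coordinates of genes come from the count table and differ from those of GRCm38, on which the exon comparison (GENCODE M21) and the promoters (RefSeq, GRCm38.p6) rest. Of the loci, 435 carry no gene identifier; they held at most 0.171% of the counts of a library and were kept in the totals.

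The sample titles gave the groups and replicate numbers. The main test was edgeR's (version 4.0.16, R 4.3.3), with TMM scaling, its default low-count filter (10 counts in a library of median size, 15 in total), the quasi-likelihood test with genotype alone and Benjamini-Hochberg adjustment over the 16107 genes left, at a threshold of 0.05. CPM uses the TMM-scaled library totals. DESeq2 1.42.0 was run on the same genes and limma 3.58.1 on counts (voom) and on log2 FPKM; further alternatives were other scalings and filters, a replicate block and leaving out libraries. The fit was tested on simulated data with 200 changed genes. No set test was run.

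The members and lists were chosen with earlier results of these data known. Values in every library are given for the 4 most abundant members of each family and for members past an adjusted p in either tool or an unadjusted p of 0.05 in edgeR; genes of the related lists are named where DESeq2 called them, up to 3 a list, and 1 such gene is not reported here. Libraries of the same group differed by more than sampling noise, with a chi-square per degree of freedom of at least 27.3, and were kept as separate samples.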

Additional observations from a re-analysis of the deposited data

How the results depend on the processing

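In edgeR, 0 members were called higher and 0 lower, and likewise 0 genes of the related lists; other scalings, a stricter filter, limma and leaving out Muc2-/- 2 with wild-type 1 (chosen after seeing the data) called none either. Without a filter on low counts, 2 members were higher and 2 lower, and 1 and 4 genes of the lists. DESeq2 called 2 members higher and 4 lower, and 5 and 6 genes of the lists. Leaving out single libraries gave 0 to 2 members higher and 0 to 1 lower, and 0 to 1 and 0 to 5 genes of the lists; all those calls came without wild-type 3. An unadjusted p gave 7 higher and 5 lower, and lack of overlap 7 and 3, against 13.3% and 15.2% of all genes. Over the whole table, where edgeR called 20 genes, it called 384 higher and 815 lower without the filter, 272 and 954 without wild-type 3, and DESeq2 659 and 1193; the cause was not tested. Same-numbered libraries deviated together with correlations of 0.094, 0.28 and 0.061, not all above 0.1, and the main test did not pair them. Muc2-/- 1 and 2 correlated best with the wild-type library of their own number, and Muc2-/- 3 with wild-type 1 (0.0636). Values this small and close cannot decide whether the libraries are pairs. With the replicate number as a block, 2 members (Gsta1 and Gstk1) were higher and 1 (Gstt1) lower, with 1 and 3 genes of the lists, and 225 and 448 genes of the table. Family log2 ratios moved by more than the spread between replicates to -0.82 for Ugt2 and -0.073 for Gstm without their most abundant member, and to 1.42 for Gsta and -0.40 for Gstt as sums of FPKM. Gstk and Gsto, with 1 member each, have no value without it. When single libraries were left out, the family log2 ratios crossed 0 for Ugt1a (-0.82 to 0.0094) and Ugt2 (-0.54 to 0.073). They also crossed 0 for Gstt (-0.23 to 0.0035) and Sult (-0.090 to 0.30), and the other families kept their direction.

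Of 502 log2 fold changes of 30 members under the alternatives, 471 kept their direction, and 18 members kept it in all. Leaving out single libraries gave ranges across 0 for Ugt1a6a (-1.08 to 0.094), Ugt1a7c (-0.82 to 0.054), Ugt2b34 (-0.51 to 0.13), Ugt2b5 (-2.17 to 4.70), Gstm2 (-0.11 to 0.23), Gstp1 (-0.040 to 0.50), Gstp2 (-0.33 to 0.20), Gstt3 (-0.017 to 0.28), Mgst1 (-0.045 to 0.77) and Sult1d1 (-0.14 to 0.37). Without both Muc2-/- 2 and wild-type 1, the direction turned for Ugt1a6a (0.0039), Gstm2 (-0.058), Gstp1 (-0.14), Gstt2 (-0.059), Gstt3 (-0.16), Mgst1 (-0.021), Sult1d1 (-0.28) and Sult2b1 (-0.087), and was kept for Ugt2b5 (-2.79) and Gstp2 (-0.49). Leaving out single libraries, Gstt2 stayed between 0.047 and 0.34 and Sult2b1 between 0.12 and 0.75. It also turned for Ugt2b5 with limma-voom (1.52) and the replicate block (0.91), for Gstp2 on FPKM (0.030 with a pseudocount of 1, with or without a minimum FPKM, and 0.039 with 0.1) and with the replicate block (0.015), and for Gstm2 with upper-quartile factors (-0.046). None of these genes passed in DESeq2, and the cause was not tested. Scarce genes such as Ugt1a6a, Ugt2b5 and Sult6b1 rest on few counts in some libraries, which limits their values.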

Other observations

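A further list held other conjugating and related enzymes, such as N-acetyltransferases, methyltransferases, epoxide hydrolases and tyrosylprotein sulfotransferases. Of its 20 tested genes, 14 had a fold change below 1, with a median log2 fold change of -0.51, against -0.01 over all genes tested. In edgeR 0 had an adjusted p under 0.05, and at an unadjusted p under 0.05 1 was higher and 6 were lower, against 8.23% and 12.7% of all genes tested. DESeq2 called 0 higher and 4 lower, namely Gstz1, Tpst1, Inmt and Ephx1, against 4.09% higher and 7.41% lower over all genes. Gstz1, the zeta-class glutathione transferase that isomerises maleylacetoacetate in tyrosine breakdown, had 19.4, 12.0 and 16.7 CPM in Muc2-/- libraries 1, 2 and 3, against 30.9, 28.8 and 26.4 CPM in wild-type libraries 1, 2 and 3. The groups did not overlap, and the log2 fold change was -0.84 (SE 0.23; DESeq2 adjusted p 0.0193). Tpst1, which sulfates tyrosines of secreted proteins in the Golgi, had 8.10, 5.02 and 6.68 CPM in Muc2-/- libraries, against 29.7, 16.9 and 9.68 CPM in wild-type libraries (log2 fold change -1.51, SE 0.43; DESeq2 adjusted p 0.0137). Its wild-type values were in the same order as the smooth muscle sum, with 27712, 16047 and 7800 CPM in wild-type libraries 1, 2 and 3, whose part in that value was not tested. Inmt, a methyltransferase that acts on indolethylamines, had 1.07, 0.264 and 0.185 CPM in Muc2-/- libraries, against 4.87, 2.19 and 2.43 CPM in wild-type libraries (log2 fold change -2.61, SE 0.74; DESeq2 adjusted p 0.0111).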
